A study of Mus musculus with 4 samples.

Results

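The genes described here are 46 cytokines, chemokines and their receptors: 15 chemokine ligands, 6 chemokine receptors, 11 cytokine ligands, 11 cytokine receptors and 3 genes of the NF-kB pathway. They were taken by exact symbol match from the 42458 rows of a gene count table of cells sorted from the mouse spinal cord, and all 46 had a row. The choice was by gene name. No measured value entered the rule, but earlier results of these data were known when it was made. The material came from 4 wild-type mice labelled C57BL6, called mice 1, 2, 3 and 4, each given AAV2-CAG-tdT, an adeno-associated virus that carries the red fluorescent protein tdTomato, into the ventricles of the brain. CAG is a promoter active in many cell types, so the label follows viral entry rather than one cell type. Slices with the ependymal region were broken up with enzymes, and flow sorting collected 50 live cells with tdTomato from each mouse into 1 library. The aim of the sort was enrichment of CSF-cNs, neurons beside the central canal that contact the cerebrospinal fluid. The mice form 1 group with no control group, so the data give the level of each gene and its spread between mice. No age or sex of the mice was given among the labels.

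Chemokines are small secreted proteins that guide migrating cells through G protein-coupled receptors, and cytokines are secreted signals read by receptors that act through JAK kinases and STAT factors or through NF-kB. NF-kB is a transcription factor held in the cytoplasm by inhibitors such as IkB-alpha, and many chemokine and cytokine genes are among its targets, as are genes for its own inhibitors. In the central nervous system microglia, the resident macrophages, are a main source of these ligands and carry many of the receptors.

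Total counts were 83007030 to 115479640 per mouse, and 15773 to 17291 genes had a count. Levels are given as CPM (counts scaled to a common library size, with TMM normalization), always in the order mouse 1, 2, 3 and 4, with means ± SD over the 4 mice. A count of 0 allowed a level of up to 0.0278 to 0.0348 CPM (3 counts per library, counting error only). The labelled cell type did not match the marker genes evenly. The tdTomato transgene stood at 0.0463, 0.621, 157 and 1709 CPM and the CSF-cN marker Pkd2l1, a channel gene, at 17.9, 0.193, 664 and 690 CPM, so the libraries of mice 1 and 2 held nearly none of the former. The 9 CSF-cN markers summed to 20.3, 12.9, 941 and 846 CPM, with P2rx2 at 0 in every mouse. In contrast, the 10 microglia markers summed to 55923, 58571, 35530.4 and 49714 CPM. All 10 were called above 10 CPM, where 36.7% of all tested genes were, and all 10 also without mice 1 and 2. In such pooled material fewer cells of a type and less RNA per cell cannot be told apart. Counts of called genes are therefore also given without mice 1 and 2, while the orders of the mice use all 4.

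Most of these genes were present, and all 11 cytokine receptors and 12 of 22 tested ligands were called above 10 CPM. Of the 46, 45 had at least 1 count, 40 had the 10 counts in total needed for testing, and 29 passed as above 10 CPM in the quasi-likelihood test of edgeR (Benjamini-Hochberg adjusted p under 0.05 over all 18522 tested genes). That is 72.5% of the tested members, beside 36.7% of all tested genes. No member was called below 10 CPM by edgeR, where 0.669% of all tested genes were. At an unadjusted p under 0.05 the number below was also 0, while 1 member was below with DESeq2 and 5 with limma-voom. The 28 called members other than Ccr1 had at least 10 CPM in every mouse. The median of the mean level was 98.4 CPM over tested members and 9.52 CPM over all tested genes. Without mice 1 and 2, a choice made after seeing the data, 27 members were called above, beside 37% of all 17182 genes then tested, with Ccr1 and Il6 no longer called. By role these were 7 chemokine ligands, 2 chemokine receptors, 4 cytokine ligands, 11 cytokine receptors and 3 NF-kB genes.

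Per kilobase of exon, the scale on which different genes can be set side by side, Cx3cr1 had the highest mean level at 824 ± 200.1 CPM per kb. Ccl4 followed at 742 ± 667, Ccl3 at 535 ± 286, Ifngr1 at 481 ± 121, Il1a at 419.8 ± 265 and Nfkbia at 403 ± 208 CPM per kb. Neighbours in this order lay within 1 SD of each other. Cx3cr1 was above Ifngr1, Il1a and Nfkbia in each of the 4 mice, and below Ccl4 and Ccl3 in mouse 1. Ccl6 (185 ± 49.8), Ccl12 (184 ± 113) and Il13ra1 (153 ± 81.5 CPM per kb) formed the next step, ahead of Il1b at 97.7 ± 74.6 CPM per kb. Among all member counts, Cx3cr1 alone made up 24.4% in mouse 1 and 35.5% to 40.3% in the others.

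Of the 15 chemokine ligands, 13 were tested and 7 were called above 10 CPM: Ccl2, Ccl3, Ccl4, Ccl6, Ccl9, Ccl12 and Cxcl16. Ccl3 and Ccl4 code for the macrophage inflammatory proteins MIP-1alpha and MIP-1beta, attractants of monocytes and T cells, and lie next to each other on chromosome 11 (GRCm38, chr11:83647844-83649355 on the minus strand and chr11:83662584-83664683 on the plus strand). Ccl3 was at 684, 481, 289 and 187 CPM (mean 410.1 ± 219, log2 level over 10 CPM 5.36, SE 0.14, edgeR adjusted p = 2.34e-07). The SE here and below is derived from the edgeR test and is not the error of a mean over mice. Ccl4 was at 1139, 306, 354 and 161 CPM (mean 489.8 ± 440.4, log2 level 5.61, SE 0.18, edgeR adjusted p = 7.39e-07). Both were highest in mouse 1 and lowest in mouse 4, and for Ccl4 mouse 1 stood at 4.16 times the mean of the other mice.

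Ccl6 and Ccl9, CC chemokines of rodents that act on Ccr1, were steadier. Ccl6 was at 359, 372, 200.0 and 397 CPM, lowest in mouse 3 with the other mice close together. Ccl9 was at 211, 241, 159 and 338 CPM, highest in mouse 4. Their coefficients of variation were 26.9% and 31.6%, beside 89.9% for Ccl4.

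The monocyte attractants of the Ccr2 group differed among themselves. Ccl12 (MCP-5) was at 89.5, 168, 21.8 and 117 CPM, with mouse 3 far below the others. Ccl2 (MCP-1) was at 15.6, 49.6, 47.9 and 19.0 CPM, high in mice 2 and 3 and low in mice 1 and 4, and it was the only called member that was lowest in mouse 1. Ccl7 (MCP-3), their neighbour on chromosome 11, was at 0, 0.0749, 8.30 and 0.0669 CPM, so that nearly all of its counts came from mouse 3, and it was not called (edgeR adjusted p = 0.419).

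Cxcl16, the membrane-bound ligand of Cxcr6, was at 36.3, 63.1, 24.6 and 27.2 CPM. The table holds a second row for it with identical counts, so this level is uncertain. Cxcl10, an interferon-induced attractant of T cells, stood at 11.4, 20.4, 0.0232 and 35.1 CPM without a call (edgeR adjusted p = 0.522). Its fitted level lay above 10 CPM with edgeR and below with limma-voom, which averages logs (log2 level -1.16, adjusted p = 0.495). Mouse 3 had 2 counts of it. The strand is not kept, and Cxcl10 shares 133 exonic bases with Art3 on the opposite strand, which was at 20.4, 0.0107, 108 and 0.0223 CPM.

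The remaining chemokine ligands were low or nearly without counts. Ccl5 (RANTES), an attractant of T cells and monocytes, was at 0, 18.4, 0.893 and 5.09 CPM and was present mainly in mouse 2. Cx3cl1 (fractalkine), the neuronal ligand of Cx3cr1, was at 0.00926, 3.07, 6.73 and 0.0446 CPM. Its counts came almost wholly from mice 2 and 3. Cxcl2, which attracts neutrophils, reached at most 1.05 CPM (mouse 4) and Cxcl14, a chemokine of healthy epithelia, at most 0.856 CPM (mouse 2). Cxcl9, induced by interferon gamma, had 9 counts and the neutrophil attractant Cxcl1 had 1, all in mouse 2, and neither was tested.

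Among chemokine receptors, 3 of the 4 tested were called above 10 CPM. Cx3cr1, the fractalkine receptor and a defining receptor of microglia (chr9:119901616-120069879, minus strand), was at 3563, 4755, 2584 and 3946 CPM (mean 3712 ± 901, log2 level 8.54, SE 0.04, edgeR adjusted p = 4.66e-10). It was highest in mouse 2 and lowest in mouse 3, with a ratio of 1.84 between them. Ccrl2, an atypical receptor that binds chemerin without known signalling of its own (chr9:111054486-111057519, minus strand), was at 342, 54.4, 37.4 and 62.4 CPM. Mouse 1 was 6.66 times the mean of the others, the widest such gap among called members.

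Ccr1, which receives Ccl3, Ccl6 and Ccl9, was at 48.8, 40.2, 7.66 and 30.3 CPM, with mouse 3 alone under 10 CPM. Its call (edgeR adjusted p = 0.00766) was lost without mouse 1 (adjusted p = 0.0561). Cmklr1, the signalling receptor for chemerin, was at 9.08, 6.98, 8.52 and 6.01 CPM, a narrow range just under the reference level that was not called in either direction (edgeR adjusted p = 0.531). Ccr2, the monocyte receptor for Ccl2, Ccl7 and Ccl12, had 2 counts, all in mouse 3. Cxcr4, the receptor for Cxcl12, had 5 counts, all in mouse 1.

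Of the 11 cytokine ligands, 9 were tested and 5 were called above 10 CPM: Il1a, Il1b, Il6, Il16 and Il18. Per kilobase, Il1a had the highest level of them in every mouse, while Il1b was below Il18 in mice 3 and 4. Il1a and Il1b code for the agonists of the interleukin 1 receptor and lie near each other on chromosome 2 (chr2:129299610-129309972 and chr2:129364570-129371139, both on the minus strand). Il1a was at 1535, 832, 287 and 659 CPM (mean 829 ± 523, log2 level 6.37, SE 0.13, edgeR adjusted p = 9.13e-08). Il1b was at 387, 181, 64.0 and 113 CPM (mean 186 ± 142, log2 level 4.22, SE 0.22, edgeR adjusted p = 6.69e-06). The 4 mice fell in the same order for both genes, 1, 2, 4 and 3. The Il1a locus also holds Gm14023 on the opposite strand with 222 shared exonic bases, and Gm14023 took 9.12% to 18.3% of the counts of the pair, so Il1a reads cannot be fully separated from it. Il1rn, the secreted antagonist of the same receptor, was at 0, 0.0107, 2.11 and 0.0111 CPM, with no call (edgeR adjusted p = 0.285).

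Il16, a chemoattractant of CD4 cells, was at 164, 149.7, 115 and 125 CPM. Il18, an interleukin 1 family cytokine released by inflammasomes, was at 133, 92.5, 69.9 and 70.0 CPM. Il6, the ligand of Il6ra, was at 34.4, 30.04, 12.6 and 16.8 CPM, and its call (edgeR adjusted p = 0.0140) was lost without mouse 1 (adjusted p = 0.0845) and without mouse 2 (adjusted p = 0.0693). All 3 were highest in mouse 1, and mouse 3 was lowest, level with mouse 4 for Il18. Il16 shares 1202 exonic bases with Stard5 on the opposite strand, which took 4.42% to 25.0% of the counts of that pair.

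Tnf, the founding member of its family, was at 39.2, 7.65, 7.28 and 14.2 CPM, with no call (log2 level 0.77, SE 0.46, edgeR adjusted p = 0.238). The table holds 4 rows for it with identical counts, and adding them together gave a call above 10 CPM (log2 level 2.77, edgeR adjusted p = 0.000323), so its level is uncertain. Without mouse 1 its fitted level was at 10 CPM (log2 -0.0098). Osm (oncostatin M), an Il6st-binding cytokine of myeloid cells, was at 43.0, 43.0, 5.01 and 3.24 CPM. It was high in mice 1 and 2 and low in mice 3 and 4, and how many genes split this way was not counted. It was not called (edgeR adjusted p = 0.155), and without mice 1 and 2 its log2 level was -1.22.

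Il12b, the subunit shared by interleukins 12 and 23, was at 0.00926, 1.56, 0 and 0 CPM. Il10, an anti-inflammatory cytokine, had 1 count, in mouse 3. Lif, another Il6st-binding cytokine, had no count in any mouse, which allows up to 0.0278, 0.0321, 0.0348 and 0.0334 CPM.

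Many cytokine messages carry AU-rich elements in the 3′ untranslated region, repeats of ATTTA that bind decay factors such as Zfp36. The longest annotated 3′ untranslated region of each gene (GENCODE M21, GRCm38) was searched on the transcript strand for TATTTAT, a choice made after seeing the data. It was present in 19 of the 46 members (41.3%), beside 27.5% of 20951 protein-coding genes and 30.1% of the 13751 of them that were tested. It was found in 8 of 11 cytokine ligands and 6 of 15 chemokine ligands, and in 1 of 11 cytokine receptors. Shown here is the stretch of 30 bases with the most ATTTA (capitals; overlapping copies run together) in 5 members with the motif that carry the results above and below.
Tnf: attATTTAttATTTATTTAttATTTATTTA
Il1b: caaccacttacctATTTATTTAtgtATTTA
Il1a: attttatctatgtATTTAtaaatatATTTA
Ccl3: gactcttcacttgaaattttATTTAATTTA
Tnfaip3: tttATTTAttatgaacttccaagttATTTA
Tnf had 8 matches to TATTTAT, Il1b and Il1a had 3 each, Tnfaip3 had 2 and Ccl3 had 1. The match of Ccl3 lies outside the stretch shown. A match is a description of the letters and not a shown site of decay.

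All 11 cytokine receptors were tested and all 11 were called above 10 CPM, also without mice 1 and 2. Ifngr1, the ligand-binding chain of the interferon gamma receptor (chr10:19591949-19610229, plus strand), was the highest at 1814, 1437, 1015 and 1207 CPM (mean 1368 ± 344, log2 level 7.10, SE 0.06, edgeR adjusted p = 2.67e-09). Mouse 1 was 1.79 times mouse 3, the lowest. Il13ra1, which binds interleukin 13 and joins Il4ra in the type II interleukin 4 receptor (chrX:36112110-36171259, plus strand), was at 1017, 493, 387 and 381 CPM, with mouse 1 at 2.42 times the mean of the others. Il4ra, the shared chain, was at 50.1, 64.2, 46.8 and 74.6 CPM.

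The interleukin 10 receptor had both chains at like levels. Il10ra, which binds the ligand, was at 249, 381, 195 and 216 CPM. Il10rb, a chain shared with other receptors, was at 269.9, 266, 213 and 279 CPM and had the lowest coefficient of variation of the called members, 11.7%. Mouse 3 was the lowest for both. Il10rb shares 569 exonic bases with Gm21970 on the same strand. Gm21970 has no row, so how many Il10rb reads belong to it cannot be told.

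The interleukin 6 family receptors were Il6st (gp130, the shared signalling chain) at 183, 235, 93.6 and 120.0 CPM and Il6ra (the chain that binds interleukin 6) at 52.3, 75.1, 41.3 and 54.3 CPM. Both were highest in mouse 2 and lowest in mouse 3. The type I interferon receptor had Ifnar2, its high-affinity chain, at 328, 298, 205 and 225 CPM, and Ifnar1, its low-affinity chain, at 44.2, 85.4, 66.9 and 41.2 CPM. Their mice fell in different orders, since mouse 1 was highest for Ifnar2 and next to lowest for Ifnar1. Ifnar2 shares 315 exonic bases with Gm21970 on the same strand, with the same limit as for Il10rb.

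The tumour necrosis factor receptors were close to each other in CPM. Tnfrsf1a (TNFR1, found on most cells) was at 97.1, 118, 78.2 and 98.5 CPM. Tnfrsf1b (TNFR2, found mainly on immune cells) was at 97.3, 137, 61.0 and 125 CPM. Both were highest in mouse 2 and lowest in mouse 3.

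Of the NF-kB pathway, all 3 members were called above 10 CPM. Nfkbia (IkB-alpha, the inhibitor that NF-kB itself induces; chr12:55489410-55492647, minus strand) was at 1139, 590.5, 419.6 and 444 CPM (mean 648 ± 336, log2 level 6.02, SE 0.11, edgeR adjusted p = 5.45e-08). Tnfaip3 (A20, a ubiquitin-editing enzyme that also damps the pathway; chr10:19000910-19015657, minus strand) was at 307, 76.6, 58.8 and 68.8 CPM (mean 128 ± 119.5, log2 level 3.67, SE 0.26, edgeR adjusted p = 3.38e-05). Mouse 1 stood above the other mice for both, at 2.35 times their mean for Nfkbia and 4.51 times for Tnfaip3. Nfkb1 (the p105 and p50 subunit) was at 117, 109.7, 78.5 and 129.5 CPM, with mouse 1 at 1.10 times the mean of the others.

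RefSeq promoter windows (GRCm38.p6, 250 bases before to 50 after a gene start) were found for 36 of the 46 members. The kappaB consensus, the site bound by NF-kB, was searched on both strands by its standard degenerate letters. It was found in a window of 10 of these 36 genes (27.8%) and in 1388 of all 27025 genes with a window (5.14%). The overlapping motif GGANTTTCC was found in 8 (22.2%) and in 392 genes (1.45%). The 10 genes were Ccl9, Ccrl2, Cxcl1, Cxcl2, Cxcl10, Il6, Il16, Il4ra, Nfkbia and Tnfaip3. The 170 bases before the start are shown for Nfkbia and Ccrl2, high in mouse 1, for Il6 and Cxcl10 as ligands with a match, and for Il1b as a high ligand without one. Capitals mark the consensus, and each is written 5′ to 3′ on the strand of the gene (Nfkbia chr12:55492648-55492817, minus; Ccrl2 chr9:111057519-111057688, minus; Il6 chr5:30012944-30013113, plus; Cxcl10 chr5:92348890-92349059, minus; Il1b chr2:129371140-129371309, minus).
Nfkbia: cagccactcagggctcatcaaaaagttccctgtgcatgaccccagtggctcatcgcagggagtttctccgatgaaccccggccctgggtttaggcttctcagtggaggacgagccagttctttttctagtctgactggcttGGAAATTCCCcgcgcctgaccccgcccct
Ccrl2: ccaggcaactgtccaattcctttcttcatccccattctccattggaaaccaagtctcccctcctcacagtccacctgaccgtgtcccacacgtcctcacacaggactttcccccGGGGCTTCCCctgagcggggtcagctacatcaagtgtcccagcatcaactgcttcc
Il6: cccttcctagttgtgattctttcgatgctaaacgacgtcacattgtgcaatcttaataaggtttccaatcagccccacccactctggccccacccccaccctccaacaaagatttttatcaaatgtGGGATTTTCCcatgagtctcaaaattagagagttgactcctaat
Cxcl10: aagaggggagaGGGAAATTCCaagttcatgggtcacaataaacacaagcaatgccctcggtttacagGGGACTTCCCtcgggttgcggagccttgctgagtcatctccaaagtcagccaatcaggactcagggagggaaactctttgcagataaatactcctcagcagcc
Il1b: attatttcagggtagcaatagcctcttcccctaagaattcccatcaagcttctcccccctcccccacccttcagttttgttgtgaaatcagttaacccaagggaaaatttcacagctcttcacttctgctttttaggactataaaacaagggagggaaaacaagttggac
The match lay 29 bases before the start in Nfkbia, 56 in Ccrl2 and 44 in Il6, and Cxcl10 had a pair of them. The other windows of Ccrl2, Il16 and Tnfaip3, at further annotated starts, held no match. Cxcl1 and Cxcl2 also hold the consensus and were nearly without counts, so matches were present among the highest and the lowest members. No match says only that these letters are not in this window.

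Within each mouse 10 pairs of related genes were compared per kilobase, as the log2 ratio of (CPM per kb + 0.1), with a two-sided exact permutation test that flips signs over mice, adjusted over the 10 pairs. With 4 mice the smallest p is 0.125, and the smallest adjusted p reached was 0.156, so no pair could pass 0.05. Il1b was lower than Il1a in all 4 mice (log2 ratio -1.94, -2.15, -2.11 and -2.50, mean -2.17 ± 0.23), although the highest mouse exceeded the lowest 5.34 times for Il1a and 6.05 times for Il1b. Ifnar1 was lower than Ifnar2 in all 4 (mean -3.01 ± 0.58) and Tnfrsf1b lower than Tnfrsf1a in all 4 (mean -0.51 ± 0.30). The last order turned without length scaling, at a log2 ratio of 0.051. Il13ra1 exceeded Il4ra in all 4 mice (mean 3.85 ± 0.84), and Il6st exceeded Il6ra in all 4 (mean 1.07 ± 0.33).

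Il10ra and Il10rb did not separate (mean 0.10 ± 0.38, higher in 2 of 4 mice), and the sign turned without mouse 2 (-0.082). Ccl3 and Ccl4 did not separate either (mean -0.25 ± 0.60, Ccl3 higher in 2 of 4 mice). Il1b exceeded Il1rn, Ccr1 exceeded Ccr2 and Cx3cr1 exceeded Cx3cl1 in all 4 mice. In these 3 pairs the second gene had few or no counts in some libraries, so the size of the ratio depends on the added 0.1 and is not read.

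**Figure D1:**
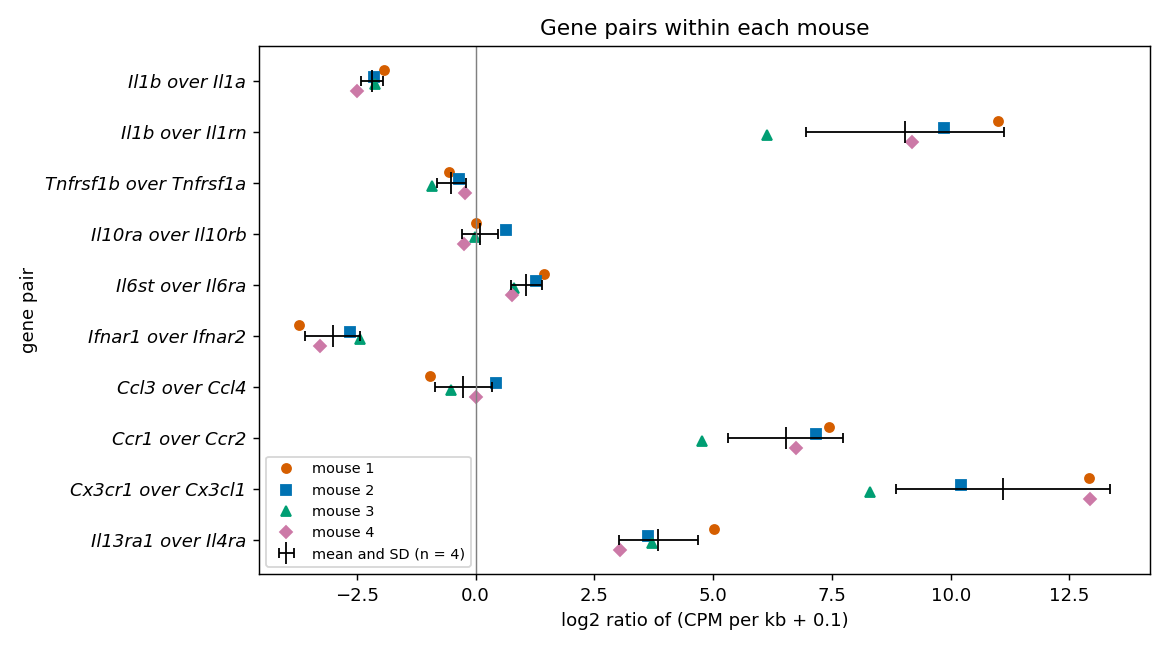
Log2 ratio of (CPM per kb + 0.1) for 10 gene pairs, with 1 symbol per mouse and the mean and SD over the 4 mice as a black bar. Il1b over Il1a has the tightest values (-2.50 to -1.94), while Il10ra over Il10rb and Ccl3 over Ccl4 straddle 0.

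The members differed between mice in a shared way, described here without a test since each mouse gave 1 library and the genes of a library are not independent. Mouse 1 was the highest for 14 of the 29 called members (48.3%) and mouse 3 for 0, while the shares over all genes called above 10 CPM were 24.9% and 25.4%. Mouse 3 was the lowest for 24 of 29 (82.8%), beside 31.6% of all called genes. The median ratio of a mouse to the mean of the others over called members was 1.23, 1.17, 0.63 and 0.79, against 1.00, 1.02, 0.93 and 0.96 over all called genes. The 2 columns of a mouse, taken as repeat runs of a library although the labels do not say what they are, differed by a median of 0.015 to 0.026 (log2) over members with at least 10 counts.

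**Figure D2:**
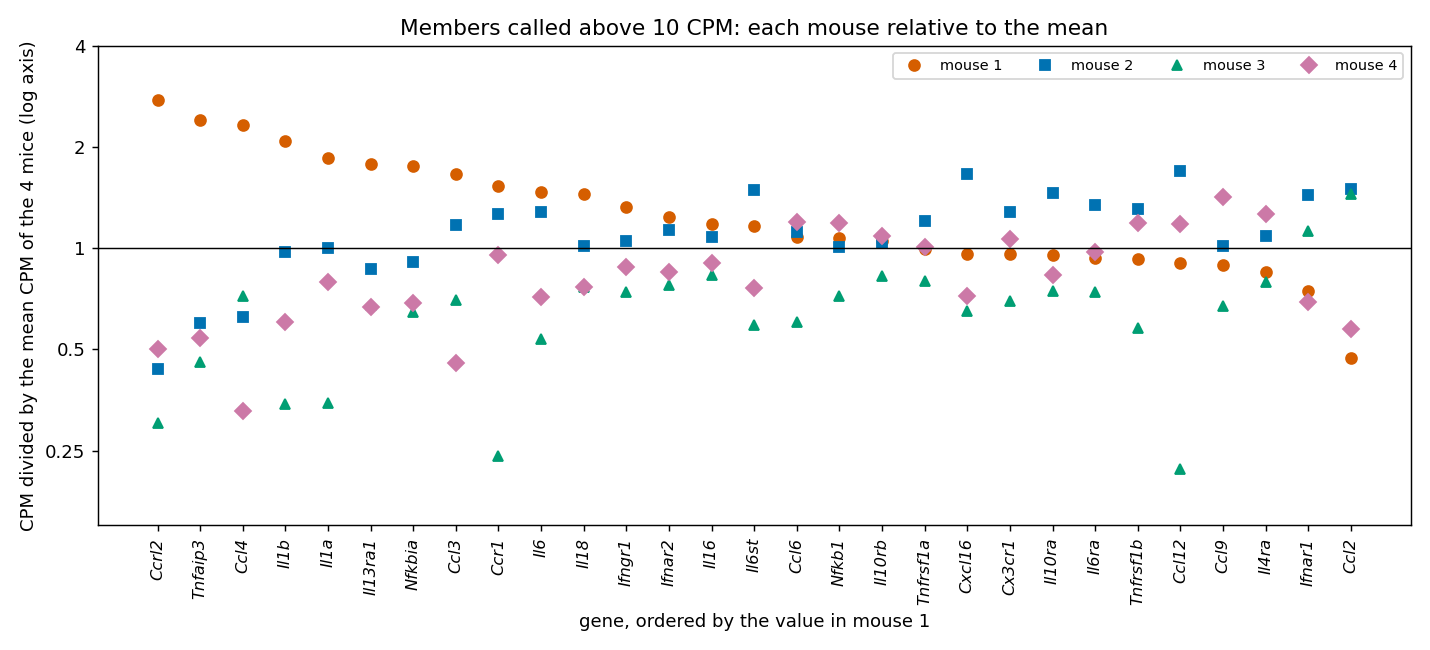
CPM of each mouse divided by the mean CPM of the 4 mice (log axis) for the 29 called members, ordered by the value in mouse 1. Ccrl2, Tnfaip3 and Ccl4 at the left have mouse 1 far above the rest, Ccl3 has mouse 2 above the mean as well, and Ccl2 at the right has mouse 1 lowest.

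Within this pattern the gap of mouse 1 was uneven. It exceeded the mean of the others 6.66 times for Ccrl2, 4.51 for Tnfaip3, 4.16 for Ccl4, 3.24 for Il1b, 2.59 for Il1a, 2.42 for Il13ra1, 2.35 for Nfkbia and 2.15 for Ccl3. The ratio was near 1 for others, among them Cx3cr1 (0.947), Il10ra (0.945), Il10rb (1.07) and Tnfrsf1a (0.990), and was 0.401 for Ccl2. Summed by role, mouse 1 led in cytokine ligands (2335, 1338, 564 and 1002 CPM), chemokine ligands (2546, 1723, 1113 and 1287 CPM), NF-kB genes (1562, 777, 557 and 643 CPM) and cytokine receptors (4202, 3588, 2401 and 2821 CPM). Chemokine receptors, mostly Cx3cr1, were highest in mouse 2 (3963, 4857, 2638 and 4045 CPM). The lead of mouse 1 was not shared by every gene of a role. Ccl3 and Ccl4 (684 and 1139 CPM in mouse 1) made up most of the chemokine ligand sum. Ifngr1 and Il13ra1 (1814 and 1017 CPM) did so for cytokine receptors. Ccl2, Ccl12 and Cxcl16 were highest in mouse 2, and Ccl6 and Ccl9 in mouse 4. Il6ra, Il6st, Il10ra, Ifnar1, Tnfrsf1a and Tnfrsf1b were highest in mouse 2, Il4ra and Il10rb in mouse 4, and Ifnar2 in mouse 1.

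Other lists moved with these sums. The 21 immediate early and stress genes, which cells induce within minutes and which digestion of tissue can induce, summed to 22944, 16502, 8128 and 13984 CPM and had the mouse order 1, 2, 4 and 3 of Il1a and Il1b. In that list 20 of 21 were called above 10 CPM, beside 36.7% of all tested genes, and 19 of 21 without mice 1 and 2. The list was led by Fos (3050.0, 2099.6, 1204 and 1698 CPM), Zfp36 (1838, 2336, 984 and 2501 CPM) and Junb (2453, 1957, 949 and 1663 CPM). The part of these 21 genes in the members' pattern was not tested. Total counts of the libraries (115479640, 95186395, 83007030 and 85626022) also fell in the mouse order 1, 2, 4 and 3. How many of all called genes fell in this order was not counted. The microglia sum was lowest in mouse 3 as well. After division by it, a choice made after seeing the data, mouse 3 was lowest for 6 and highest for 5 of 29 called members. Mouse 1 was highest for 13 and lowest for 7, where it had been lowest for 1, and mouse 4 was lowest for 12, where it had been for 4. The highest mouse then exceeded the lowest 1.27 times for Cx3cr1 (1.84 before), 4.19 times for Tnfaip3 (5.22 before) and 6.58 times for Ccrl2 (9.14 before). The division scales every gene of a mouse by the same factor, so it shifts the order of the mice for any set of genes. The share over all called genes after the division was not counted, so the new counts are not read as a trait of the members.

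Markers of blood leukocytes were low, and those of other cells differed between mice. The 10 monocyte and neutrophil markers summed to 0.111, 3.47, 4.72 and 1.74 CPM, with Ly6c2, S100a8 and S100a9 at 0 in every mouse. The 10 lymphocyte markers summed to 0.259, 0, 4.62 and 0 CPM. The 8 border macrophage markers summed to 93.0, 45.5, 61.2 and 80.1 CPM, and 1 of the 7 tested was called, Mrc1 (38.2, 16.4, 36.5 and 30.3 CPM). Oligodendrocyte markers summed to 14827, 236, 19055 and 454 CPM, high in mice 1 and 3 and low in mice 2 and 4. Astrocyte markers summed to 1253, 161, 1348 and 301 CPM, with 3 of 10 called. Most of this sum in mice 1 and 3 came from Aldoc (835, 11.6, 846 and 118 CPM) and S100b (298, 4.20, 440 and 10.5 CPM). The third was Slc1a3 (115, 122, 52.1 and 155 CPM), and the uncalled ones included Gfap, Aqp4 and Slc1a2. Ependymal markers summed to 0.00926, 0.524, 16.8 and 75.0 CPM, pan-neuronal markers to 134, 90.3, 1124 and 393 CPM and endothelial markers to 19.5, 12.2, 20.0 and 25.6 CPM. Without mice 1 and 2, 1 of 6 border macrophage and 3 of 10 astrocyte markers were called. The share of all tested genes called was 36.7%, and 37% without mice 1 and 2. The part of these cell types in the members' levels was not tested.

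**Figure D3:**
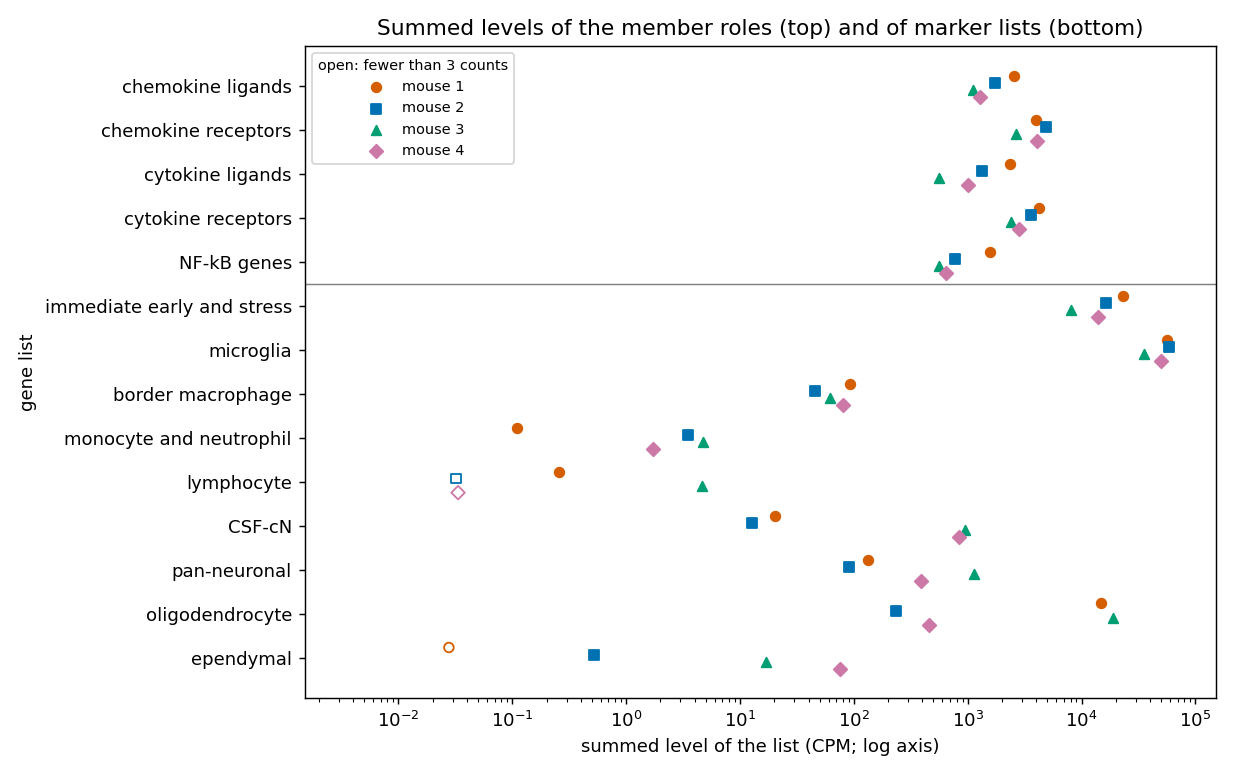
Summed CPM (log axis) of the 5 member roles above the line and of marker lists below it, 1 symbol per mouse; open symbols are sums of fewer than 3 counts, drawn at the 3-count level. The microglia list lies between 35530.4 and 58571 CPM in all mice, whereas the CSF-cN list is at 846 and 941 CPM in mice 4 and 3 and at 12.9 and 20.3 CPM in mice 2 and 1.

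The spread of a gene between mice was also set beside its sequence features, as a description. The median SD of log2(CPM + 1) was 0.52 over called members and 0.43 over all called genes. The 10 called members with TATTTAT in the 3′ untranslated region, namely Ccl3, Ccl4, Ccl12, Ccrl2, Il1a, Il1b, Il6, Il10ra, Nfkbia and Tnfaip3, had a median SD of 1.05, and the 19 without had 0.43. Over all called genes the medians were 0.46 with the motif (1942 genes) and 0.41 without (4519 genes). For the kappaB consensus, called members without a promoter window were left out (Ccl2, Ccl4, Cxcl16, Il10ra, Il10rb and Nfkb1). Of the rest, 7 with a match had a median SD of 0.65 and 16 without had 0.50. Over all called genes with a window the medians were 0.44 and 0.43. These genes overlap with those high in mouse 1, share the same 4 libraries and were sorted by a feature chosen after seeing the data.

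**Figure D4:**
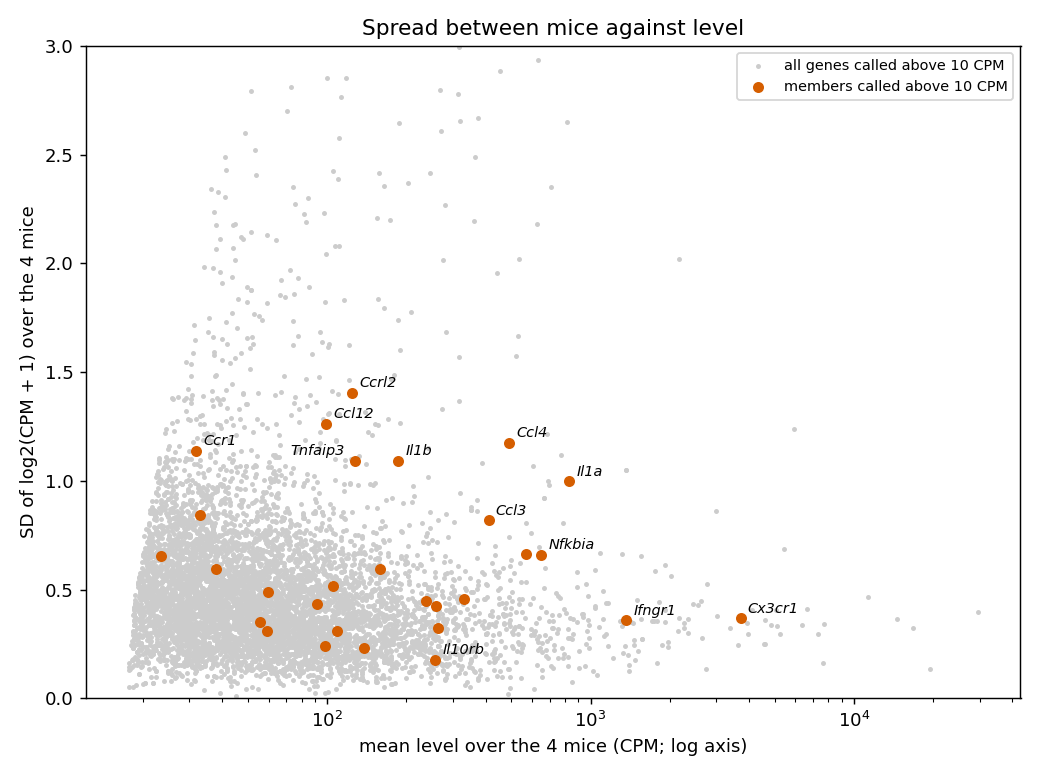
SD of log2(CPM + 1) over the 4 mice against the mean level (CPM, log axis) for genes called above 10 CPM; grey points are all such genes and orange points the 29 members. Ccrl2, Ccl12, Ccl4, Ccr1, Il1b and Tnfaip3 have an SD above 1, whereas Cx3cr1, Ifngr1 and Il10rb have low spread at high level; 69 genes with an SD above 3 lie outside the plot.

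Other genes of the pathway were read from lists of related genes. Chemokine ligands outside the members were nearly absent, with 12 of 20 at no count. Over all 42458 rows, 18522 were tested, and the share at no count was not counted. The 12 are therefore not read as a trait of this list. Of the 6 tested chemokine ligands, edgeR called 0 above and 0 below 10 CPM (without adjustment 0 and 1). DESeq2 gave 0 and 1 and limma-voom 0 and 4. Their most abundant gene was Ccl27a, coding for a chemokine of skin, with 1.83, 10.8, 7.57 and 13.8 CPM. Of 7 tested interleukins 1 was called, Il15, a cytokine that sustains lymphocytes, at 34.5, 45.7, 17.7 and 39.2 CPM. Of 20 tested interleukin and interferon receptors 8 were called, led by Ifngr2 (123, 148, 111 and 169.8 CPM), the partner of Ifngr1, and Il21r (102, 181, 73.9 and 142 CPM).

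Signalling genes followed. In the tumour necrosis factor family 6 of 17 tested genes were called, led by Tnfrsf13b (227, 271, 95.9 and 166 CPM) and Tnfrsf21 (184, 139.8, 162 and 172 CPM). In the NF-kB pathway 22 of 29 were called, led by the kinase gene Chuk (226, 135, 122 and 121 CPM). Of the JAK-STAT list 14 of 19 were called, led by the phosphatase gene Ptpn6 (592, 577, 318 and 503 CPM), the feedback inhibitor Socs3 (330.1, 339, 136 and 192 CPM) and Jak1 (337, 251, 193 and 189 CPM). For the inflammasome, which processes Il1b and Il18, 5 of 7 were called, led by the adaptor Pycard (138, 271, 137 and 187 CPM), with Gsdmd and Casp1 also called. Each of these counts reads against the 36.7% of all tested genes called above 10 CPM. Without mice 1 and 2 the counts were 1 of 6 interleukins, 7 of 19 interleukin and interferon receptors, 6 of 17 genes of the tumour necrosis factor family, 20 of 29 of the NF-kB list, 9 of 19 of the JAK-STAT list and 4 of 7 of the inflammasome list. The JAK-STAT count thus went from 14 to 9. With all 4 mice, DESeq2 called 10 genes of that list above 10 CPM and limma-voom called 13.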

How the data were processed

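RNA of 4 libraries, 1 per mouse and 50 cells each, was analysed. Per the labels, complementary DNA was made with SMART-Seq v4 (11 PCR cycles) and libraries with Nextera XT, which keep no strand and carry no molecular identifiers, so floors cover counting error alone. Unnormalized counts, 2 columns for each mouse, were deposited by the authors, together with a table of log2 values, which from the values are log2 of counts divided by a size factor, plus 1. The submitters' processing notes name build mm10 and the tools RSEM, STAR, DESeq2, Trim Galore and FastQC. Their versions and roles and the annotation were not given in the sources used here.

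What the columns of a mouse are is not stated in the labels. They were summed as repeat runs, so that each mouse is 1 replicate. CPM used TMM factors (0.935 to 1.05). In R 4.3.3, edgeR 4.0.16 fitted an intercept-only quasi-likelihood model against 10 CPM to the 18522 genes with at least 10 counts, with Benjamini-Hochberg adjustment over all of them and a threshold of 0.05. The printed SE is the log2 level over the root of F. It is not the SD between mice divided by the root of their number, and it can be much smaller. For Cx3cr1 the SE was 0.04, beside an SD of log2(CPM + 1) of 0.37 over the mice. The procedure was tested on counts simulated with the same variability for every gene. That test does not cover genes with a wide spread such as Ccrl2 (SD of log2(CPM + 1) 1.40). Alternatives were DESeq2 1.42.0, limma-voom (limma 3.58.1), DESeq2 size factors, no count filter, other reference levels, added copy rows, left-out mice and, for pairs, other pseudocounts, no length scaling and the deposited log2 values. The rest ran in Python 3.11.15 (pandas 2.3.3, numpy 2.4.6, matplotlib 3.10.9, scipy 1.17.1). Exonic lengths and positions come from GENCODE M21 on GRCm38, whose models matched 27962 of 42458 rows (97.3% of counts). All 46 members are named, with the top genes by mean CPM of 19 lists of related genes and cell type markers (286 genes, 2 without a row), and some genes that this rule takes are not reported here. The members, lists and pairs were chosen with earlier results of these data known. P-values rest on the spread between these 4 mice, and edgeR pools the variance of a gene partly over all tested genes.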

Additional observations from a re-analysis of the deposited data

Results flagged for a closer look

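In 5 of 45 values examined (members with at least 10 counts and the role sums), 1 mouse stood far from the other 3 on the log2(CPM + 1) scale, measured as its gap to the nearest mouse divided by the whole range. Chance alone flags about 1 in 20 such groups, and the genes of a library are not independent. Tnfaip3 had mouse 1 high (gap 0.841 of the range). Ccl6 had mouse 3 low (0.855). Ccl7 (0.968) and Il1rn (0.990) had nearly all of their counts in mouse 3, and Il12b (0.990) had them in mouse 2.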

How the results depend on the processing

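No paired analysis was possible because the mice form a single group, so that no samples pair across groups; the gene pairs compare genes within a mouse. The count of members called above 10 CPM, 29, was 26 to 31 over the alternatives, and 27 to 29 when 1 mouse was left out. Ccr1 and Il6 lost their calls without mouse 1, and Il6 without mouse 2. DESeq2 gave no adjusted p for Ccl5, Ccl7, Ccrl2, Il1rn and Il12b. Members called below 10 CPM numbered 0 with edgeR and stayed at 0 when any 1 mouse was left out, but were 1 with DESeq2 (Cxcl14), 5 with limma-voom (Ccl7, Cxcl2, Cxcl14, Il1rn and Il12b) and 4 without a count filter (Cxcl1, Ccr2, Cxcr4 and Il10). The log2 level turned sign for Cxcl10 with limma-voom (-1.16), for Tnf without mouse 1 (-0.0098; up to 1.03 over left-out mice) and for Osm without mice 1 and 2 (-1.22). The log2 ratio of Tnfrsf1b to Tnfrsf1a turned without length scaling (0.051), and that of Il10ra to Il10rb without length scaling (-0.024), without mouse 2 (-0.082; up to 0.21 over left-out mice) and without mice 1 and 2 (-0.13). The cause was not tested for these. Pair ratios over left-out mice kept their sign otherwise. With 1 library per mouse, the precision rests on 4 values per gene, and genes under about 3 counts cannot be told from 0.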
